A study of Homo sapiens with 4 samples.

Results

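Genes of cholesterol synthesis and its control, 8 in all, were followed in NGP cells, an established human neuroblastoma line, after Nutlin-3 or its solvent ethanol. The 8 members were HMGCS1, IDI1, FDFT1, SQLE, LSS, CYP51A1, DHCR7 and INSIG1. They were chosen as named genes and by no rule on their values, but with earlier results of these data known. All 8 of 8 were found by Ensembl identifier among the 25693 human genes of the count table. None of them is a receptor for cholesterol uptake, so genes of uptake enter only through a separate list. The control cells received ethanol and the treated cells Nutlin-3, both for 24 h, and both had first been synchronised by serum starvation. RNA was read in droplets on the ddSeq device with a kit for polyadenylated RNA that reads the 3' end of transcripts. The 4 libraries, 2 per treatment, had ERCC RNAs, synthetic transcripts added as a reference, at a 1000-fold or a 10000-fold dilution.

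Cells make cholesterol from acetyl-CoA. HMGCS1 acts at the entry to the mevalonate pathway, IDI1 converts the isoprenoid unit into its reactive isomer, FDFT1 joins farnesyl units into squalene, SQLE oxidises squalene, LSS closes the sterol rings, CYP51A1 removes a methyl group from lanosterol and DHCR7 carries out a last reduction to cholesterol. INSIG1 is not an enzyme of the path. It holds the SREBP transcription factors, with their escort SCAP, in the endoplasmic reticulum when sterols are plentiful, and it is itself a target of SREBP, as are the enzymes. Nutlin-3 blocks the binding of MDM2 to p53.

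Each column of the table carries a treatment word and a barcode but no library, so each treatment was 1 pool of 250 columns with no replicate. No test between treatments could be run, and intervals below cover only the counting error of independent counts. Of the 250 barcodes in each treatment, 219 occurred in both. Columns fell into a large class (totals over 4000 counts, 113 per treatment) and a small class (137 per treatment), a split taken from an earlier analysis of these data. Values in large columns cluster at 1 more than independent counts would. HMGCS1, for example, was at 0 in 0, at 1 in 96 and above 1 in 17 of the 113 large ethanol columns. The true coverage of intervals on sums that include large columns is therefore not known. The ethanol pool held 1342134 human counts and the Nutlin-3 pool 1301232. ERCC species gave 2989 and 4007 counts, or 449 and 325 human counts per ERCC count. Each pool mixes both dilutions in an unknown proportion, so how many columns each library gave cannot be told apart from a change in human RNA in any value scaled to ERCC counts. The treatment label was checked with CDKN1A, a p53 target at 70 counts in ethanol and 188 in Nutlin-3, and MDM2, another at 315 and 504. Of 12 markers of adrenergic neuroblastoma, 12 were seen in both pools, with 3619 and 3607 counts in sum. Of markers of other types, endothelial genes gave 1 and 2 counts, epithelial genes 21 and 35, blood genes 24 and 49 (all LYZ), and mesenchymal genes 113 and 109. No count was read for COL1A2, PTPRC, HBB, HBA1, CD3E, PECAM1 and CDH5. The part of these markers in the results was not tested.

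Promoter sequence is shown for the 4 genes that span the range of differences described below, from DHCR7 (the lowest ratio among the well-counted members) through INSIG1 and HMGCS1 to IDI1 (nearly level). RefSeq promoter windows (GRCh38.p14, 250 bases before to 50 after a start) were matched for 6 members, in 10 windows. The stretches below lie before the start and outside exons of protein-coding genes, and read 5′ to 3′ on the gene's strand. The DHCR7 stretch lies upstream of a RefSeq start but inside the longer GENCODE span of the gene. Capitals mark matches on either strand to CCAAT, the core of NF-Y sites (ATTGG on the other strand), or to GGGCGG, the core of SP1 sites (CCGCCC on the other strand).
DHCR7, chr11:71448436-71448643, minus strand: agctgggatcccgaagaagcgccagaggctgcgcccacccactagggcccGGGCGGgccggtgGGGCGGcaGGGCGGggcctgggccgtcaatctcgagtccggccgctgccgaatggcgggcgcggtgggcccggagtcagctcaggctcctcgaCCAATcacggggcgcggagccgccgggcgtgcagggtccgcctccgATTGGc
INSIG1, chr7:155297628-155297775, plus strand: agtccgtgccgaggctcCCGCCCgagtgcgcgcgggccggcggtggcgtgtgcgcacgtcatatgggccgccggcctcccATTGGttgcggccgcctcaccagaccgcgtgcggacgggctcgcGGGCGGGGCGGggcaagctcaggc
HMGCS1, chr5:43313513-43313662, minus strand: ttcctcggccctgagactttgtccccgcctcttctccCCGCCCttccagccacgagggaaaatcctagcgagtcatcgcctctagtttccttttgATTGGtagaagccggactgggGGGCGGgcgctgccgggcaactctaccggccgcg
IDI1, chr10:1049171-1049369, minus strand: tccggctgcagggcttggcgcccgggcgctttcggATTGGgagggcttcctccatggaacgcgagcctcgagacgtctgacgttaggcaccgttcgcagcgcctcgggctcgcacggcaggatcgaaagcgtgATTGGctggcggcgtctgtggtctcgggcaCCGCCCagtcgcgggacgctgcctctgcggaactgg

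NF-Y and SP1 are known partners of SREBP at its target promoters. CCAAT was present in 6 of the 10 windows, from 5 of the 6 members, and in 34.6% of the 35116 promoter windows of all genes. GGGCGG was present in 9 of the 10 windows, from all 6 members, against 45.0% of all windows. The E-box CACGTG was present in 2 of the 10 windows, those of INSIG1 and LSS, against 7.26% of all windows. The sterol regulatory element was searched as TCACNCCAC, which 1.13% of all windows hold, and matched in 0 of the 10 windows. Other forms of that element, and sequence outside the windows, were not searched. Matches were counted on both strands, and matches of one motif may overlap each other. Some windows of HMGCS1 and of IDI1 overlap, so the 10 windows are not independent. The shares over all windows were not matched for base composition, and no enrichment was tested. DHCR7 and IDI1, at opposite ends of the range of differences, both held CCAAT.

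Summed over the 8 genes, the ethanol pool gave 1069 counts (exact Poisson interval at 95%, 1006 to 1135) and the Nutlin-3 pool 886 (829 to 946). The log2 ratio of Nutlin-3 to ethanol (the fold change on a log2 scale), scaled to human counts, was -0.22 (95% counting interval -0.35 to -0.10). In such sums, fewer cells that express a gene and less of its RNA per cell cannot be told apart. All 8 members had a value below 0, where 50.3% of the 14830 genes that passed the filter on low counts did. Their median was -0.27, against -0.0011 over all genes that passed. At a log2 ratio of -0.3 or lower there were 2 of the 8 members, DHCR7 and CYP51A1, and 13.4% of all genes. Among the well-counted genes, taken as those whose mean reached 50 CPM (counts scaled to library size), 1 of 7 members (DHCR7) and 4.53% of 8844 genes were that low. The values were small, 2 of them (IDI1 and LSS) lay close to 0, and the intervals of 7 of the 8 members included 0.

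The enzymes that lead to squalene differed unequally. HMGCS1 (ENSG00000112972, GRCh38 chromosome 5, 43289395 to 43313512, minus strand) had 167 counts in ethanol (143 to 194) and 133 in Nutlin-3 (111 to 158), a log2 ratio of -0.28 (-0.62 to 0.055). Of the well-counted genes, 5.43% were as low. IDI1 (ENSG00000067064, chromosome 10, 1039152 to 1049170, minus strand) stood at 141 and 136 counts, with a log2 ratio of -0.0059 (-0.36 to 0.34), in the middle of all genes. FDFT1 (ENSG00000079459, chromosome 8, 11795573 to 11839309, plus strand), at the branch towards sterols, had 195 and 161 counts and a log2 ratio of -0.23 (-0.54 to 0.078). The intervals of the counts overlapped between treatments for all 3 genes.

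Of the enzymes after squalene, DHCR7 had the lowest value. SQLE (ENSG00000104549, chromosome 8, 124998497 to 125022283, plus strand), a rate-controlling step, had 176 counts with ethanol and 143 with Nutlin-3, a log2 ratio of -0.25 (-0.58 to 0.073). LSS (ENSG00000160285, chromosome 21, 46188141 to 46228824, minus strand) had 140 and 128 counts and a log2 ratio of -0.083 (-0.44 to 0.27). DHCR7 (ENSG00000172893, chromosome 11, 71428193 to 71452868, minus strand) had 107 counts in ethanol (87.7 to 129) and 73 in Nutlin-3 (57.2 to 91.8), a log2 ratio of -0.50 (-0.96 to -0.063). It was the only member whose interval lay below 0, as it did for 3.57% of the genes that passed the filter, and 0.961% of the well-counted genes were as low. CYP51A1 (ENSG00000001630, chromosome 7, 92112151 to 92134803, minus strand) was seen with 21 and 16 counts, and its log2 ratio of -0.34 had an interval from -1.38 to 0.66. At these counts a difference in CYP51A1 was not detectable.

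INSIG1 (ENSG00000186480, chromosome 7, 155297776 to 155310235, plus strand), the sterol-dependent brake on SREBP, had 122 counts in ethanol (101 to 146) and 96 in Nutlin-3 (77.8 to 117). Its log2 ratio, -0.30 after rounding and just short of the limit of -0.3, had an interval from -0.70 to 0.098, and 4.62% of the well-counted genes were as low. INSIG2, the related protein with the same role, stood at 86 and 82 counts and a log2 ratio of -0.022 (-0.48 to 0.43). The intervals of the INSIG1 and INSIG2 differences overlapped, and their difference was not tested.

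Neighbouring transcripts were examined, since the sources used here do not say how reads were assigned to genes or strands. INSIG1-DT (chromosome 7, 155295918 to 155297541, minus strand), a noncoding RNA that starts on the other strand just upstream of INSIG1 and does not overlap it, had 92 counts with ethanol and 49 with Nutlin-3. Its log2 ratio was -0.86 (-1.39 to -0.35). The unnamed antisense gene ENSG00000261604 (chromosome 5, 43287601 to 43290839) overlaps the 3' end of HMGCS1 and had 61 and 25 counts, a log2 ratio of -1.22 (-1.97 to -0.55). Reads of HMGCS1 and of this gene cannot be told apart without strand. Both transcripts were named after their values were seen. Other transcripts on the opposite strand within or beside a member were not lower to that extent. ENSG00000254682, inside DHCR7, had 109 and 103 counts, ENSG00000255046, inside FDFT1, 23 and 23, ENSG00000228404, at the end of LSS, 5 and 8, MCM3AP-AS1, beyond the start of LSS, 44 and 51, and IDI2-AS1, which overlaps IDI1, 7 and 13. CYP51A1 shares its strand and span with 2 protein-coding gene models not analysed here. Of its pseudogenes, CYP51A1P1 had 0 and 2 counts and CYP51A1P2 had 4 and 2. Whether this bears on the low counts of CYP51A1 was not tested.

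The sums were also read in each class of column. In the large columns the 8 genes gave 886 counts in ethanol and 788 in Nutlin-3, a log2 ratio of -0.13 (-0.27 to 0.011). The small columns gave 183 (157 to 212) and 98 (79.6 to 119), with a ratio of -0.76 (-1.13 to -0.40) on the log2 scale. The 2 counting intervals did not overlap, but the classes differ in depth. Most values in large columns are exactly 1, as described below. The part of this in the difference between classes was not tested. Of the label checks, CDKN1A had a log2 ratio of 1.13 in the large and 3.84 in the small columns, and MDM2 had 0.77 and 0.66. Columns are not replicates, and the difference between classes was not tested. The median over all genes that passed the filter was 0.000087 in the large columns and 0.025 in the small ones. Human counts per ERCC count were lower in Nutlin-3 than in ethanol in both classes. They were 357 against 478 in the large columns and 186 against 303 in the small ones, and the part of this in the result was not tested.

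**Figure D1:**
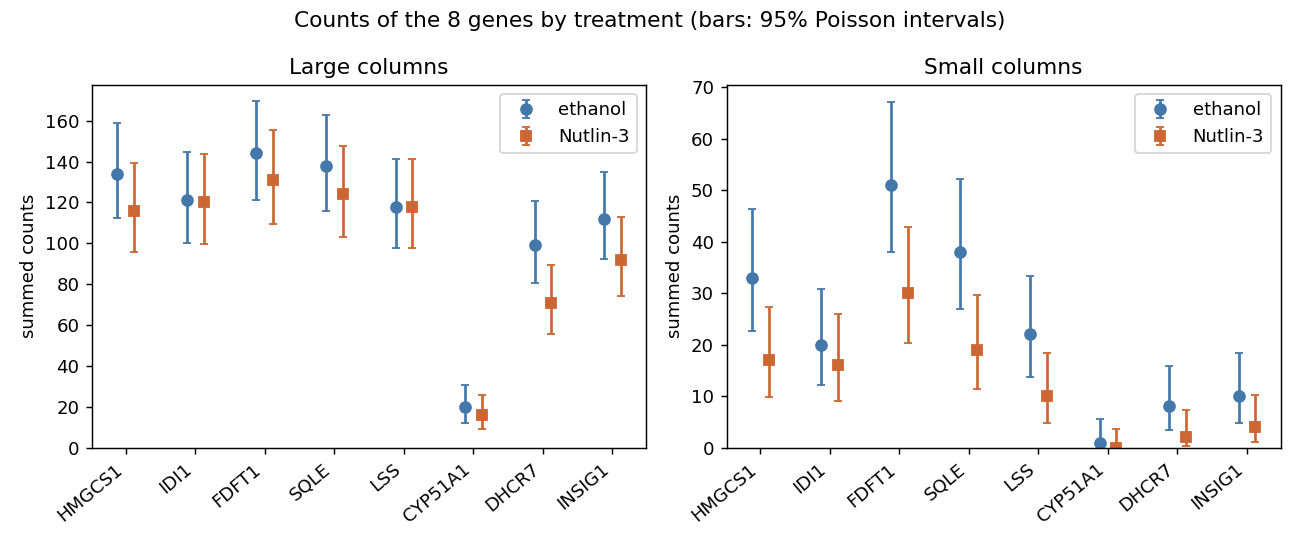
Summed counts of each of the 8 genes (vertical axis) in ethanol (circles) and Nutlin-3 (squares), for large columns on the left and small columns on the right, with 95% Poisson intervals. In the large columns LSS is level at 118 in both treatments and DHCR7 stands at 99 and 71, while in the small columns each gene is lower in Nutlin-3.

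In the small columns SQLE had 38 counts under ethanol and 19 under Nutlin-3, a log2 ratio of -0.85 (-1.74 to -0.034). HMGCS1 had 33 and 17 counts, with a log2 ratio of -0.80 (-1.76 to 0.065). FDFT1 had 51 and 30 counts, a log2 ratio of -0.62 (-1.33 to 0.049). For each of these 3 genes the interval overlapped that in the large columns. LSS, level in the large columns at 118 counts in each treatment, had 22 and 10 counts in the small ones, a log2 ratio of -0.96 (-2.24 to 0.14). IDI1 had 20 and 16 counts there, INSIG1 10 and 4, DHCR7 8 and 2, and CYP51A1 1 and 0. In the small columns 5 members passed the filter, and 4 of them (all but IDI1) were at -0.3 or lower, as were 28.4% of the 4762 genes that passed. All 5 were below 0, against 48% of genes. In the large columns DHCR7 had 99 and 71 counts, a log2 ratio of -0.44 (-0.90 to 0.015), and INSIG1 112 and 92, a log2 ratio of -0.24 (-0.66 to 0.17). HMGCS1 stood there at 134 and 116 counts, SQLE at 138 and 124, FDFT1 at 144 and 131 and IDI1 at 121 and 120. For these genes most values per large column were exactly 1. In the large class 1 of 8 members (DHCR7) was at -0.3 or lower, against 12.7% of genes, and 6 of 8 (all but IDI1 and LSS) were below 0, against 50% of genes. The spread of the well-counted genes was wider in the small columns, with the central 95% between -1.22 and 1.26, against -0.38 and 0.37 in the large ones.

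**Figure D2:**
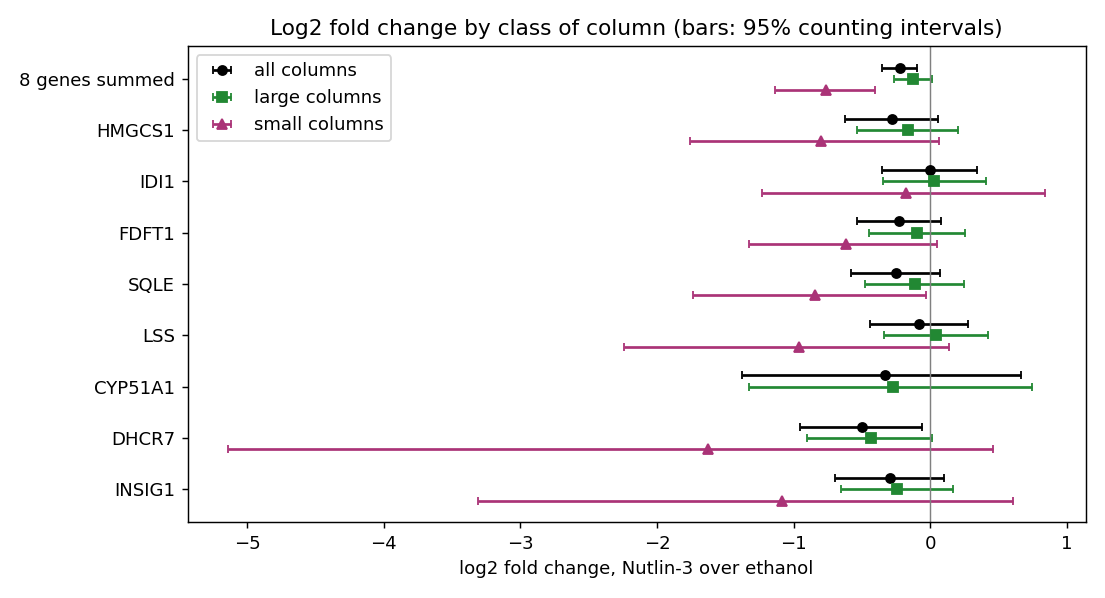
Log2 ratio of Nutlin-3 to ethanol (horizontal axis) for the 8 genes summed and singly, in all columns (circles), large columns (squares) and small columns (triangles), with 95% counting intervals. The summed value is -0.13 in large and -0.76 in small columns, and CYP51A1 is left out in small columns, where it had 1 and 0 counts.

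Values per column were mostly 0 or 1. In large ethanol columns 77.0% of the members' values were exactly 1, and in large Nutlin-3 columns 73.1%. The same shares were 78.7% and 77.6% for the 8844 well-counted genes. A sum over large columns therefore stays near their number, 113, and differences show as columns without a count or with more than 1. DHCR7 had no count in 17 of 113 large ethanol columns and in 42 of 113 large Nutlin-3 columns. The share of large columns with DHCR7 was thus 85.0% under ethanol (77.0 to 91.0, exact binomial) and 62.8% under Nutlin-3 (53.2 to 71.7). INSIG1 was missing from 5 and 24 of them, a share with a count of 95.6% (89.98 to 98.55) and 78.8% (70.1 to 85.9). The median depths were 10738 and 10617 human counts. Such shares were not computed over all genes, and columns are not replicates, so these values are a description only. Thinned to 700 counts, DHCR7 remained in 3 and 7 of the 113 large columns and INSIG1 in 10 and 2, too few to read an order. HMGCS1 was missing from 0 and 4, and was above 1 in 17 ethanol and 7 Nutlin-3 columns. SQLE was above 1 in 22 and 14 columns, and FDFT1 in 25 and 17. IDI1 was missing from 1 and 5 columns and above 1 in 9 and 10, and LSS was missing from 3 and 6 and above 1 in 8 and 11. So DHCR7 and INSIG1 differed mostly by absence and HMGCS1, SQLE and FDFT1 mostly by fewer repeated counts. This form went with abundance. Mean counts per large ethanol column were 0.88 for DHCR7 and 0.99 for INSIG1, against 1.19 for HMGCS1, 1.22 for SQLE and 1.27 for FDFT1. Other genes of like abundance were not examined, so the form cannot be read as a trait of these genes. For IDI1 and LSS both more absences and more repeated counts were seen in Nutlin-3, in small numbers that offset each other. Over the 8 genes, the counts beyond the first in each large column and gene came to 102 in ethanol and 65 in Nutlin-3, a log2 ratio of -0.42 (-0.90 to 0.039) relative to such counts of all genes.

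The mean number of members seen per column was 6.94 in large ethanol and 6.40 in large Nutlin-3 columns, and 1.32 and 0.708 in small ones. In large columns the median was 7 in both treatments (range 3 to 8), and 7 or 8 members were found in 94 of the 113 columns under ethanol and in 57 of the 113 under Nutlin-3. Of the members, CYP51A1 was missing from 93 and 97 large columns, DHCR7 from 17 and 42 and INSIG1 from 5 and 24. Each other member was missing from 6 or fewer, and no like count was made for other gene sets. In small columns the median was 1 in ethanol and 0 in Nutlin-3. None of the members was seen in 50 of 137 small ethanol columns (36.5%) and in 75 of 137 small Nutlin-3 columns (54.7%). Small columns had a mean of 1106 human counts in ethanol and 1028 in Nutlin-3. After thinning each column to 700 counts, at least 1 member was seen in 44.8% of 194 ethanol columns (95% exact binomial interval 37.7 to 52.1) and in 37.4% of 187 Nutlin-3 columns (30.5 to 44.8), with 56 and 63 shallower columns left out. At that depth the intervals overlapped. Columns are not replicates, so these shares cannot decide whether the treatments differ. Without thinning the shares of the 250 columns were 80.0% and 70.0%. The median column then held 2287 human counts in ethanol and 2010.5 in Nutlin-3. All cells are of 1 line, so no cell type that lacks these genes was at hand to measure the share that free RNA gives.

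**Figure D3:**
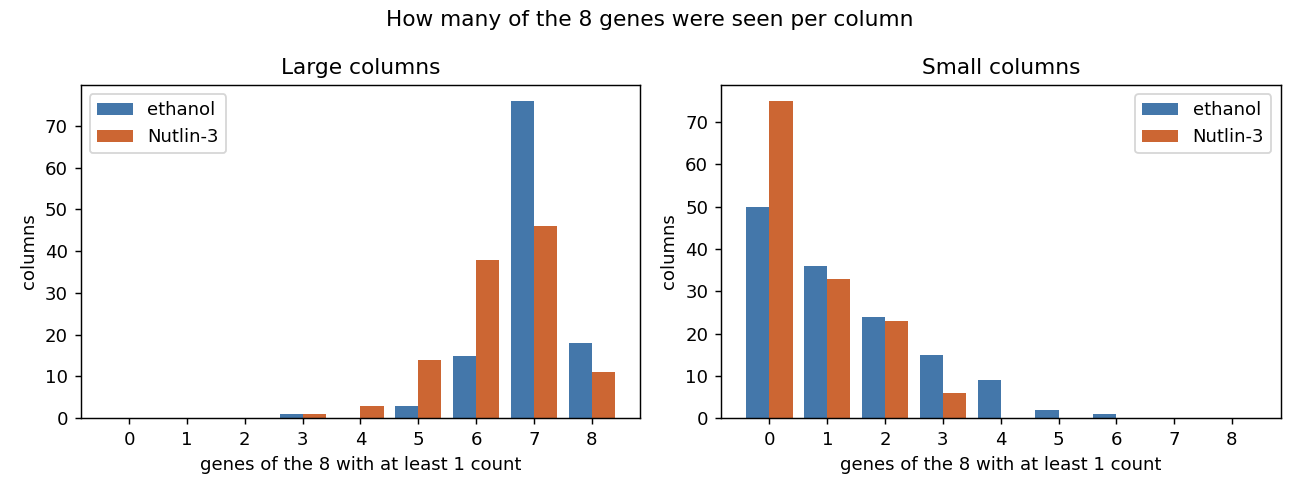
Number of columns (vertical axis) by how many of the 8 genes had at least 1 count (horizontal axis), for ethanol and Nutlin-3, with large columns on the left and small columns on the right. Small columns with none of the 8 genes number 50 in ethanol and 75 in Nutlin-3.

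The rest of the sterol pathway was read from a list of 22 enzymes and helpers of cholesterol synthesis, 7 of them members. All 22 passed the filter, 20 had a value below 0, against 50.3% of all genes, and the median was -0.24. Without the members the median of the other 15 was -0.15, with 13 below 0. At -0.3 or lower were 6 of the 22, against 13.4% of all genes, and at 0.3 or higher was 1, against 15.9%. ACAT2, which makes the acetoacetyl-CoA used by HMGCS1, had 157 counts with ethanol and 118 with Nutlin-3, a log2 ratio of -0.36 (-0.72 to -0.012). ACAT2 had 131 and 111 counts in the large columns, a log2 ratio of -0.20 (-0.58 to 0.18), and 26 and 7 in the small ones. Beside ACAT2, the members DHCR7 and CYP51A1, and LBR (described next), the list genes at -0.3 or lower were 2 named after their values were seen. These were MSMO1, which removes methyl groups after LBR or TM7SF2 have acted (131 and 102 counts, -0.31), and MVK, mevalonate kinase (53 and 38 counts, -0.43). PMVK, a kinase of the mevalonate pathway, was level at 96 and 94 counts, a log2 ratio of 0.016. Counting intervals of 3 of the 22 genes (DHCR7, ACAT2 and LBR) lay below 0, against 3.57% of all genes.

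The reduction of the C14 double bond of sterols, the step after CYP51A1, can be made by either of a pair of related reductases, and these differed in opposite directions. LBR, which also anchors chromatin at the nuclear envelope, had 254 counts in ethanol (224 to 287) and 191 in Nutlin-3 (165 to 220), a log2 ratio of -0.36 (-0.64 to -0.089). TM7SF2, the other reductase, had 32 counts in ethanol (21.9 to 45.2) and 85 in Nutlin-3 (67.9 to 105), a log2 ratio of 1.44 (0.85 to 2.09). It was at 32 and 73 counts in the large columns and at 0 and 12 in the small ones. Scaled to ERCC counts, which moved the median of all genes to -0.47, TM7SF2 was still higher, at 0.97 (0.38 to 1.62). TM7SF2 has a mean under the 50 CPM that the rule for named genes asked for and was named after its value was seen. Counting intervals lay above 0 for 4.55% of the genes that passed the filter.

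Genes that sense sterols and process SREBP were split evenly in direction. Of 14 genes, INSIG1 included, 7 were below and 7 above 0, with a median of -0.011. At -0.3 or lower were 0 of them, against 13.4% of all genes. SREBF2, the gene of the SREBP that mainly drives cholesterol synthesis, had 139 and 125 counts, a log2 ratio of -0.11 (-0.47 to 0.25). SREBF1, whose products mainly drive fatty acid synthesis, had 111 and 108 counts, a log2 ratio of 0.0067 (-0.39 to 0.40). Among the other well-counted genes of the list the lowest were PGRMC1, a haem-binding membrane protein, at -0.18 and RNF139, a ligase of the endoplasmic reticulum, at -0.15. The highest were SYVN1, another such ligase, at 0.10 and MBTPS2, a protease that releases SREBP, at 0.077. Scaled to ERCC counts, these last 2 were at -0.37 and -0.39.

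The branch that turns isoprenoids into ubiquinone, dolichol and lipid anchors had a median of -0.034 over 11 genes. Of these, 7 were below 0, against 50.3% of all genes. COQ2, of ubiquinone synthesis, was the lowest at 102 and 75 counts, a log2 ratio of -0.40 (-0.85 to 0.047), and RABGGTA, a subunit that attaches lipid anchors to Rab proteins, the highest at 68 and 84 counts, 0.35 (-0.13 to 0.83). Neither interval excluded 0. NUS1 and DHDDS, the paired subunits of the enzyme that makes dolichol chains, were at -0.20 and 0.13. With ERCC scaling RABGGTA was at -0.12 and DHDDS at -0.34.

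For uptake and movement of cholesterol, 14 of 16 listed genes passed the filter, 7 below and 7 above 0, with a median of -0.014. At -0.3 or lower was 1 of the 14, and at 0.3 or higher were 2, against 13.4% and 15.9% of all genes. MYLIP, a ligase that removes lipoprotein receptors, had 113 and 95 counts, a log2 ratio of -0.20 (-0.61 to 0.20). LIPA, the lysosomal lipase that frees cholesterol, and OSBP, a sterol transfer protein, were level at 0.10 and 0.099, and at -0.37 each with ERCC scaling. Counting intervals lay above 0 for 2 of the 14, against 4.55% of all genes. These were NPC2 and LRP1, both named after their values were seen. NPC2, which carries cholesterol out of the lysosome, had 17 counts with ethanol and 34 with Nutlin-3, a log2 ratio of 1.03 (0.17 to 1.98), and LRP1, an endocytic receptor of the same family as the lipoprotein receptors, had 36 and 57, a log2 ratio of 0.70 (0.082 to 1.35). Scaled to ERCC counts these were 0.56 and 0.23, and both intervals included 0.

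Genes of efflux and storage had a median of 0.034 over the 6 of 9 that passed. ABCA1, which exports cholesterol from the cell, was level at 122 counts in ethanol and 120 in Nutlin-3, a log2 ratio of 0.022 (-0.35 to 0.40). NR1H2, a sterol-sensing nuclear receptor, was level too, at 79 and 81 counts. SOAT1, which esterifies cholesterol for storage, was the lowest at 99 and 71 counts, a log2 ratio of -0.43 (-0.89 to 0.021). Fatty acid genes under SREBP-1 had a median of -0.096 over 10 of 11, with 8 below 0, against 50.3% of all genes. ACLY, which supplies cytosolic acetyl-CoA to both pathways, had 235 and 193 counts, a log2 ratio of -0.24 (-0.52 to 0.043). SCD, a desaturase, had 254 and 209 counts, a log2 ratio of -0.23 (-0.51 to 0.034). FASN, the fatty acid synthase, was at -0.068 and LPIN1, of glycerolipid synthesis, at 0.11, or -0.36 with ERCC scaling. ACSS2, which makes acetyl-CoA from acetate, had 4 and 14 counts and was named after its values were seen. Of the 6 lists, the sterol synthesis list had the lowest median. Differences between lists were not tested.

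**Figure D4:**
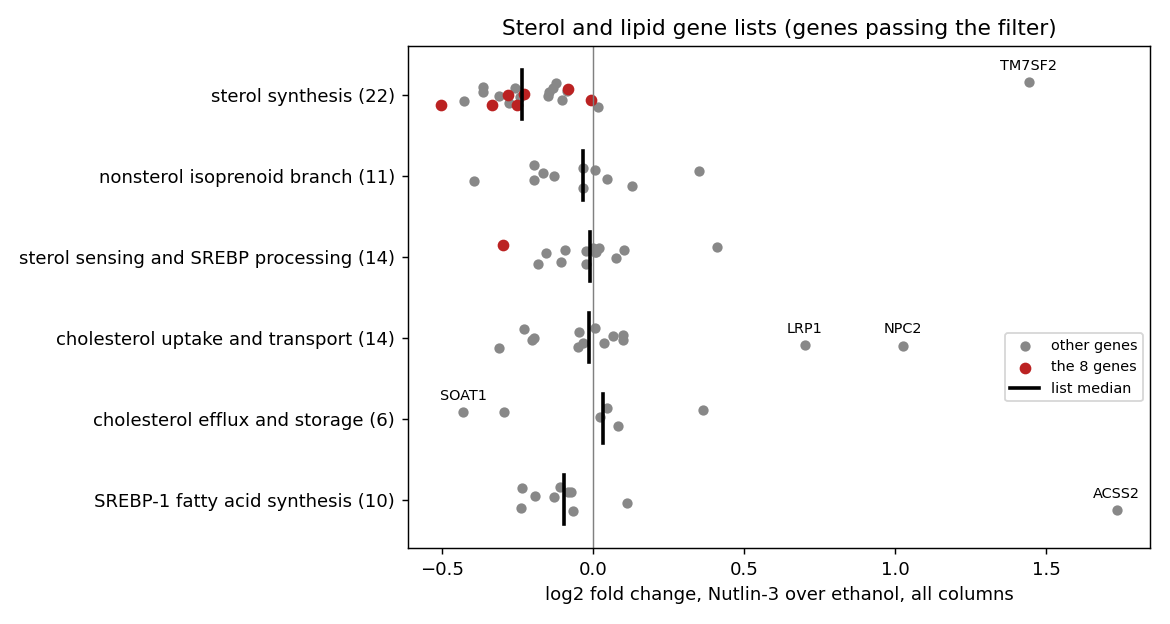
Log2 ratio of Nutlin-3 to ethanol (horizontal axis) for each gene that passed the filter in 6 lists, with the number of genes in brackets, the 8 members in red and the list median as a bar. The sterol synthesis genes lie mostly below 0 with a median of -0.24, and TM7SF2 stands apart at 1.44.

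The genes whose pattern was most like that of the 8 members summed were found among 8837 others by the distance between log2 CPM values in 4 sums (2 treatments by 2 classes of column), centred on each gene. The nearest 5 were GGH, SUZ12, DEPDC1, FKBP5 and MCC, at distances of 0.013 to 0.059. GGH had 127 and 112 counts in the large columns and 26 and 14 in the small ones. SUZ12 had 126 and 111, and 26 and 14. The other 3 had 117 to 122 counts in large ethanol columns and 106 to 112 in large Nutlin-3 columns, and 24 or 25 against 13 or 14 in the small ones. The 4 sums share their pools with the members' values, so this is a description only.

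Most counts of the members came from columns whose barcode occurs in both treatments. These 219 columns per treatment gave 1050 and 870 counts, a log2 ratio of -0.22 (-0.35 to -0.090). The other 31 per treatment, all small, gave 19 and 16 counts, a log2 ratio of -0.40 (-1.46 to 0.63). Scaled to ERCC counts the summed value was -0.69 (-0.82 to -0.56), an interval that leaves out the unknown mix of dilutions, and 8 of 8 members were at -0.3 or lower, as were 75.9% of all genes.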

How the data were processed

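The values deposited by the authors are counts, whole numbers for each gene in each column, and show no normalization. Libraries came from the SureCell WTA 3' kit on the ddSeq device, per the labels' protocols. How reads were aligned, collapsed by molecular tag, assigned to genes and columns and filtered is not given in the sources used here, nor is the build. Columns named treated were taken as Nutlin-3 and columns named untreated as ethanol, and 0 were unassigned. Column totals ran from 253 to 13502 counts, and that depth sets the counting intervals. Symbols came from the identifier table given with the reference, and positions from GENCODE 29 on GRCh38, which need not be the authors' build.

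The design called for edgeR on 4 library sums where columns name a library. They do not, so counts were summed per treatment without ERCC rows and no test was run. Scaling used TMM factors and the filterByExpr minimum of 10 (edgeR 4.0.16, R 4.3.3). Log2 fold changes had 0.5 counts added to each sum. Intervals are 95%: exact Poisson for sums, exact binomial for the Nutlin-3 share of both counts, which gives the interval of a fold change, and order statistics for medians. Counts without known molecular tags need not be independent molecules. Doublets were not sought in this single line. Python 3.11.15 and scipy 1.17.1 were used.

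The members, lists, column classes and rules were chosen with earlier results of these data known. Named genes were the 8 members, the 2 highest and 2 lowest genes of each list with a mean of at least 50 CPM, CDKN1A and MDM2 as label checks, ABCA1, INSIG2, SREBF1 and SREBF2, and the 5 genes most alike in pattern (1 CPM added before the log2). Some further genes of that rule are not reported here.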

Additional observations from a re-analysis of the deposited data

How the results depend on the processing

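No paired analysis was possible because no column names its library, so each treatment is 1 pool. For the same reason leave-one-out fits, the replicate block and tests were not run. DESeq2 1.42.0 size factors, totals with no factor, 2 counts added, no filter and columns with a barcode in both treatments left the members' summed value between -0.23 and -0.22, and capping each value at 1 gave -0.20. All but the capping could hardly move the sum. The TMM factors were 1.0005 and 0.9995, all 8 members passed the filter, and shared barcodes held 1050 of 1069 ethanol and 870 of 886 Nutlin-3 counts. Counts beyond the first in large columns, chosen after seeing the data, gave -0.42, and columns with a barcode in 1 treatment gave -0.40.

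ERCC counts as library size subtract one constant from every gene, and the constant depends on the unknown mix of dilutions. They gave -0.69 for the members' sum, -0.74 for their median, -0.70 for sterol synthesis, -0.50 for the isoprenoid branch, -0.48 for SREBP processing, -0.48 for uptake, -0.43 for efflux and -0.57 for fatty acid genes, with 8 members at -0.3 or lower.

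Small columns alone gave -0.76 for the sum and medians of -0.80 for the 5 members that passed there, -0.48 for sterol synthesis, -0.30 for the isoprenoid branch, 0.14 for uptake, 0.50 for the 1 efflux gene that passed and -0.24 for fatty acid genes, with 4 members at -0.3 or lower. Large columns alone left 1 member that low. In the small columns a gene could pass the filter through its count in 1 treatment alone. COQ2 passed there with 13 counts in ethanol and 5 in Nutlin-3, and MYLIP with 9 and 12, while TM7SF2, with 0 and 12, did not. The part of this selection in the medians of small columns was not tested. Columns with a barcode in 1 treatment left 0 members past the filter or at -0.3 or lower, and medians of -0.77 for the 1 sterol synthesis gene and -0.36 for the 2 fatty acid genes that passed. The cause was not tested.

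Columns with any member made up 25.7% (ethanol) and 21.2% (Nutlin-3) when thinned to 350 counts, 80.0% and 70.0% without thinning, and 54.3% and 45.9% in small columns thinned to 700.

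For single members, 59 of 78 values under 10 alternatives stayed within the first counting interval and 4 changed sign, none of a member whose interval excluded 0: IDI1 and LSS in large columns (0.028 and 0.040), and IDI1 and FDFT1 in columns with a barcode in 1 treatment (0.33 and 0.47). The 10 alternatives include those that could hardly move the sum, so this tally is not a measure of stability.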
